A study of Homo sapiens with 2 samples.

Results

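The E2F and DP transcription factors are 10 genes, E2F1 to E2F8 and their partners TFDP1 and TFDP2, chosen by symbol in the deposited tables of C4-2B cells. All 10 were found, each in 1 row that carried no other symbol, among 15441 expressed genes in 2 libraries. C4-2B is a human prostate cancer line of the LNCaP lineage that grows without androgen and spreads to bone. The vehicle library came from cells given DMSO, and the other library from cells given 2.5 µM MA4-022-1, which the series title calls a dual inhibitor of BET proteins and kinases. No source used here gives the length of exposure. The stated aim was to look for genes on which castration-resistant tumours depend for growth and which the compound affects. With 1 library in each group the spread between cultures is unknown, so p-values cannot be computed and every difference compares these 2 libraries.

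E2F proteins bind the promoters of genes for DNA replication and the cell cycle, and E2F1 to E2F6 do so as dimers with a DP protein. E2F1, E2F2 and E2F3 act mainly as activators, held in check by the retinoblastoma protein RB1 until cyclin-dependent kinases phosphorylate it. E2F4 and E2F5 act mainly as repressors with the related pocket proteins RBL1 and RBL2, E2F6 works with Polycomb proteins, and E2F7 and E2F8 repress without a DP partner. Several of these genes are themselves E2F targets, so that their own messages rise as cells enter S phase. In bulk RNA, fewer cells in S phase and less message per cell cannot be told apart.

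The letters that E2F proteins read were looked for in front of the members, to show which promoters carry them beside the expression values. RefSeq promoter entries on GRCh38.p14 matched 8 of the 10 members, and E2F5 and E2F8 had no entry used here. The search covered the 250 bases before each start, on both strands, for 8 words: TTTCCCGC, TTTCCCGG, TTTCGCGC, TTTCGCGG, TTTGCCGC, TTTGCCGG, TTTGGCGC and TTTGGCGG. Of 35116 RefSeq promoters, 5.23% held at least 1 of these words, and 0.248% held 2 that did not overlap. Of the 8 members with an entry, 5 held a word, and E2F1, E2F2, E2F3 and E2F6 each held 2 that did not overlap. The last 100 bases before the start are shown for 6 members, with the words in capitals:
E2F1: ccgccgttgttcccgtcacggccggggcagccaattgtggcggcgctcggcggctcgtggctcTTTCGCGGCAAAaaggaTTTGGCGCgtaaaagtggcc
E2F2: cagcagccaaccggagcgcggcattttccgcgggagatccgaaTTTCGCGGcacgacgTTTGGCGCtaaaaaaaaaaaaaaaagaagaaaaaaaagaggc
E2F3: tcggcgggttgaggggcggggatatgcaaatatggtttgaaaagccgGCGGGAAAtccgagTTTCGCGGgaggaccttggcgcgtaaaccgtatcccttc
E2F6: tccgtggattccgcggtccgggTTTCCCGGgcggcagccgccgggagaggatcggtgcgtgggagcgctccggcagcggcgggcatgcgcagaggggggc
E2F4: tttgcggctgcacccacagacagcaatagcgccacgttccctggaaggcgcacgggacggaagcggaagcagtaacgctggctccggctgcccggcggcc
E2F7: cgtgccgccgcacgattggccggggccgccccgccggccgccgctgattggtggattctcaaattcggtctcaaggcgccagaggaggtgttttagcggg

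These windows lie at chr20:33686386-33686485 on the minus strand for E2F1, chr1:23531234-23531333 on the minus strand for E2F2 and chr6:20401779-20401878 on the plus strand for E2F3. Those of E2F6, E2F4 and E2F7 lie at chr2:11466162-11466261 (minus), chr16:67192055-67192154 (plus) and chr12:77065570-77065669 (minus). In E2F1 the words began 37, 33 and 20 bases before the start, the first pair overlapping on opposite strands. In E2F2 the same 2 words, TTTCGCGG and TTTGGCGC, began 57 and 42 bases before it. E2F3 has 2 starts in RefSeq, and the one shown, which is the upstream one, held words at 53 and 39 bases, whereas the other start held none. E2F6 held TTTCCCGG at 183 and 78 bases, TFDP1 held 1 word at 120 bases, and E2F4, E2F7 and the 3 starts of TFDP2 held none. A match of letters is a description and not a measured binding site.

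The letters of the CCAAT box, searched as CCAAT on both strands, stood 3 times before E2F1, 4 times before the upstream start of E2F3 and 4 times before E2F7. They stood 2 times before the first of the TFDP2 starts and in 32% of all RefSeq promoters. The CHR element of late cell cycle genes, searched as TTTGAA and TTCGAA on both strands, stood once before the upstream E2F3 start and once before each of the other two TFDP2 starts, and in 14.3% of all promoters. Of 8062 expressed genes with a promoter entry, 8.47% held an E2F word, against 10.7% of the 720 among them that were at least 2-fold lower with MA4-022-1 and 6.61% of the 333 that were at least 2-fold higher. Over the G1/S targets listed for this family, the share was 14 of 31, or 45.2%. These shares by gene used only the first listed start of each gene, whereas every listed start of a member was searched.

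Values are RPKM, the authors' read numbers scaled to gene length and library size, so levels can be set side by side between genes as far as that scaling holds. From the steps of the lowest values, the totals behind the scale were estimated at 26804910 reads with vehicle and 19740751 reads with MA4-022-1. The labels' protocol states more sequenced reads for each library than these totals. Read numbers and counting intervals below rest on the estimated totals. Markers fixed for the luminal prostate cell were present: FOLH1 stood at 615 RPKM with vehicle and 488 RPKM with MA4-022-1. KLK2 and KLK3 shared 1 joint row and were not counted. Basal, endothelial and immune markers with a row of their own were all under 1 RPKM in both libraries. COL1A1, of fibroblasts, stood at 1.19 and 5.03 RPKM and SYP, of neuroendocrine cells, at 1.20 and 3.17 RPKM. Their part in the results was not tested.

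Of the 10 members, 9 were lower with MA4-022-1 and only E2F4 was higher. On the log2 ratio of RPKM + 1, MA4-022-1 over vehicle, 4 members were at least 2-fold lower (E2F1, E2F8, E2F2 and E2F5) and none was at least 2-fold higher. As background, 9.57% of all expressed genes were lower by that margin and 7.75% were higher by it. Among expressed protein-coding genes the share lower was 9.5% and the share higher 4.12%. The median log2 ratio was -0.92 over the members and -0.02 over all expressed genes. The members were listed with results of these libraries known, so the count and the median describe the family and test nothing. Every member had at least 1 RPKM in the vehicle library and so passed the filter on low values. With MA4-022-1, E2F2, E2F7 and E2F8 were under 1 RPKM, so these passed only through the vehicle library. Adding 1 RPKM shrinks the ratio of low genes, so folds of RPKM itself are given for each member below, with 95% intervals that cover counting error only.

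**Figure D1:**
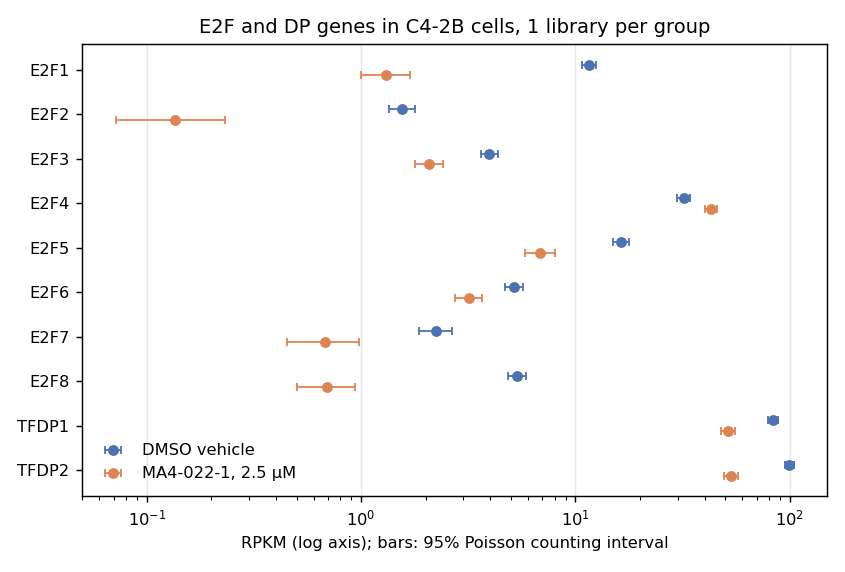
RPKM of the 10 members on a log axis in the DMSO vehicle library and the MA4-022-1 library, 1 library each, with bars for the 95% Poisson counting interval of each level. E2F4 is the only gene whose MA4-022-1 point lies to the right, and E2F1, E2F2 and E2F8 have the widest gaps.

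**Figure D2:**
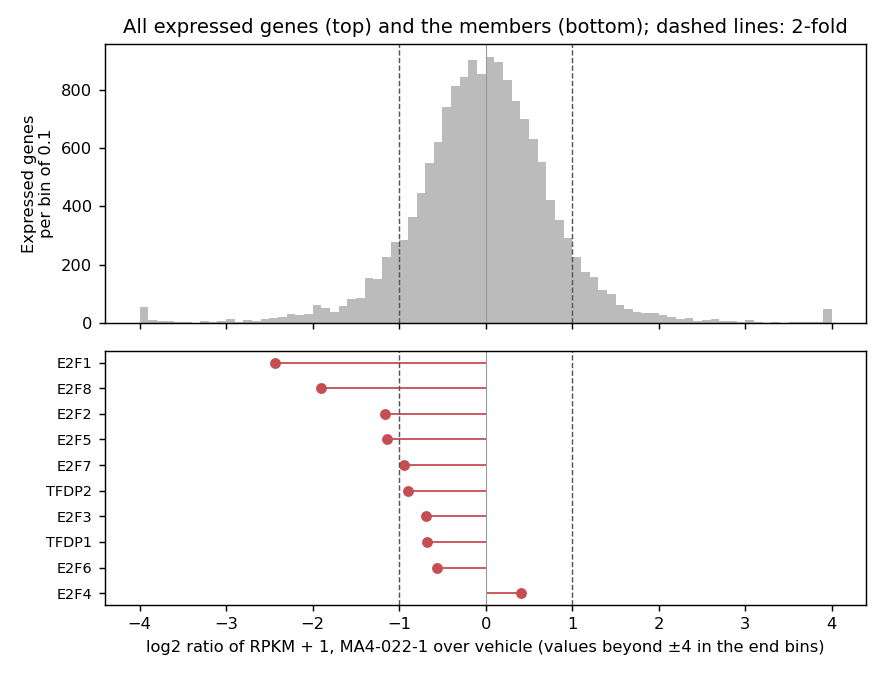
Histogram of the log2 ratio of RPKM + 1 over 15441 expressed genes (top), and the ratio of each member (bottom), with dashed lines at 2-fold. E2F1, E2F8, E2F2 and E2F5 lie left of the lower line at -2.44, -1.90, -1.17 and -1.14, and E2F4 alone lies right of 0.

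E2F1, the activator first found and the best studied member, stood at 11.5 RPKM in vehicle cells and 1.31 RPKM in MA4-022-1 cells (hg19 chromosome 20, 32263489 to 32274210). Its RPKM was 8.80-fold lower, with a counting interval of 6.72 to 11.6, and about 713 reads were behind the first value and 60 behind the second. Its log2 ratio of RPKM + 1, -2.44, was the lowest of the family, and 1.10% of expressed genes had a ratio as low or lower. E2F2, which can stand in for E2F1 in driving S phase, was the least abundant member in both libraries, at 1.55 and 0.135 RPKM (chromosome 1, 23832922 to 23857712). Its RPKM was 11.5-fold lower, the largest fold of RPKM in the family. That value rests on about 207 and 13 reads, and its interval ran from 6.71 to 22.4, so E2F1 and E2F2 could not be ranked against each other by this measure.

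E2F3 differed less than the other activators, at 3.97 and 2.07 RPKM (chromosome 6, 20402398 to 20493941). Its RPKM was 1.91-fold lower with an interval of 1.60 to 2.30, which does not overlap the intervals of E2F1 and E2F2. E2F3 makes a long and a short protein, E2F3a and E2F3b, from separate starts, and 1 value per gene does not separate them. With E2F1 at 2.91 times the level of E2F3 in the vehicle library and 0.631 times with MA4-022-1, the order of the pair was reversed. The intronic transcript E2F3-IT1, which shares the locus, stood at 1.30 and 0.505 RPKM. A signal recognition particle RNA copy named at the same locus stood at 300 and 229 RPKM, and no source used here says how reads were divided between these rows.

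E2F4, the main E2F of resting and differentiated cells, stood at 31.9 RPKM in vehicle cells and 42.8 RPKM in MA4-022-1 cells (chromosome 16, 67226072 to 67232821). It was 1.34-fold higher, with an interval of 1.22 to 1.47, and lay within 2-fold. Under the 3 other scalings tried its log2 ratio of RPKM + 1 stayed above 0, and over all settings it ran from 0.29 to 0.52. E2F5, its closest relative, was 2.38-fold lower at 16.3 and 6.85 RPKM (chromosome 8, 86089460 to 86132682). E2F4 was thus at 1.96 times the level of E2F5 with vehicle and 6.25 times with MA4-022-1. The interval of the E2F5 fold, 1.99 to 2.88, reached just below 2-fold. It assumes the median coding transcript of 1322 nt in a range of 604 to 1890 nt, and a longer transcript would narrow it. The deposited locus of E2F5 also holds C8orf59, at 502 and 428 RPKM. E2F6, which lacks the domains for activation and pocket binding, was 1.63-fold lower at 5.18 and 3.17 RPKM, with an interval of 1.38 to 1.95 (chromosome 2, 11584501 to 11606297).

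E2F8 and E2F7, the atypical repressors that close the S phase programme, were both lower. E2F8 stood at 5.33 and 0.694 RPKM, or 7.68-fold lower with an interval of 5.62 to 10.8, on about 449 and 43 reads (chromosome 11, 19203578 to 19302973). Its log2 ratio of RPKM + 1 was -1.90, and 2.27% of expressed genes had one as low or lower. E2F7 stood at 2.23 and 0.680 RPKM (chromosome 12, 77415027 to 77459360). Its RPKM was 3.28-fold lower with an interval of 2.19 to 5.19, but on RPKM + 1 its log2 ratio was -0.94, within 2-fold. The call thus depends on the pseudocount: with 5 RPKM added, E2F1 alone stayed at least 2-fold lower, and with 0.1 RPKM added E2F7 passed as well, at -1.58. Of the pair, E2F8 was at 2.39 times the level of E2F7 in the vehicle library and at 1.02 times with MA4-022-1, where their counting intervals overlapped. E2F7 carries no E2F word in the window shown above and E2F8 has no entry there.

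The DP genes, whose proteins complete the DNA-binding dimer, were the most abundant members in both libraries. TFDP1 stood at 83.4 and 51.7 RPKM, or 1.61-fold lower with an interval of 1.48 to 1.78 (chromosome 13, 114239001 to 114295688). TFDP2 stood at 99.4 and 53.1 RPKM, or 1.87-fold lower with an interval of 1.73 to 2.06 (chromosome 3, 141663277 to 141868386). Both lay within 2-fold, and their counting intervals overlapped in the MA4-022-1 library and not in the vehicle library. Their sum was 2.34 times that of E2F1 to E2F8 with vehicle and 1.82 times with MA4-022-1. TFDP3, a DP-like gene of the testis, and the pseudogene E2F4P1 were listed at 0 in both libraries.

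The make-up of the E2F messages differed more than their sum. Summed over E2F1 to E2F8, the level was 78.0 RPKM in vehicle cells and 57.7 RPKM in treated cells, 1.35-fold lower, whereas without E2F4 it was 46.1 and 14.9, or 3.09-fold lower. The activators E2F1 to E2F3 summed to 17.0 and 3.52 RPKM, or 21.8% and 6.09% of the total. The atypical pair summed to 7.56 and 1.37 RPKM, or 9.69% and 2.38%. E2F4 made up 40.9% with vehicle and 74.2% with MA4-022-1, and E2F4 and E2F5 together were nearly level at 48.2 and 49.6 RPKM. E2F4 exceeded E2F1 by 2.77 times in the vehicle library and by 32.7 times with MA4-022-1.

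**Figure D3:**
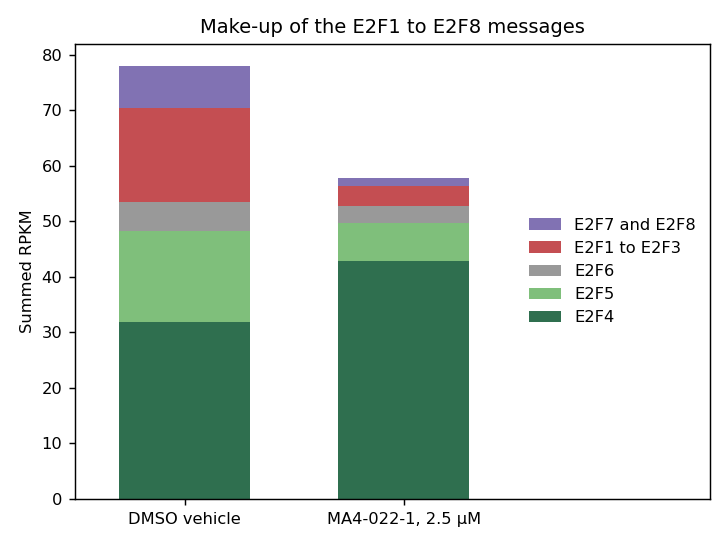
Summed RPKM of E2F1 to E2F8 in each library, stacked by member or group, 1 library per group and no error bars. The E2F4 block grows from 31.9 to 42.8 RPKM while the E2F1 to E2F3 block goes from 17.0 to 3.52 RPKM and the E2F7 and E2F8 block from 7.56 to 1.37 RPKM.

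In order of level, the vehicle library ran TFDP2, TFDP1, E2F4, E2F5, E2F1, E2F8, E2F6, E2F3, E2F7 and E2F2. Of these neighbours, E2F8 and E2F6 had counting intervals that overlapped, at 4.85 to 5.85 and 4.70 to 5.70 RPKM. With MA4-022-1 the first 4 places and the last were the same, and E2F6 and E2F3, which stood below E2F1 and E2F8 with vehicle, stood above them. The genes most like E2F1, by distance in log2 RPKM + 1 over the 2 libraries, were the noncoding CTD-2541M15.1 and RP11-107M16.2 and POLE2, a subunit of the leading-strand polymerase. Their distances were 0.109, 0.137 and 0.148, and POLE2 stood at 11.2 and 1.09 RPKM. Those most like TFDP2 were ANP32B, a histone chaperone, ABCC4, a transporter, and WARS, a tRNA synthetase, at distances of 0.041 to 0.060. With 2 libraries such likeness amounts to a like level and ratio.

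The pocket proteins, which bind E2F and silence its targets, were all lower, and 1 of 3 passed 2-fold. RBL1, or p107, stood at 21.0 and 8.70 RPKM over 2 summed rows, a log2 ratio of RPKM + 1 of -1.19. RBL2, or p130, stood at 62.1 and 40.2 RPKM and RB1 at 14.6 and 9.24 RPKM. The RB1 entry used here starts far inside the gene, so the RB1 promoter is not described. The last 100 bases before the RBL1 start, at chr20:37095998-37096097 on the minus strand, are shown because they hold 2 E2F words 26 and 16 bases before it, whereas neither RBL2 start held any:
RBL1: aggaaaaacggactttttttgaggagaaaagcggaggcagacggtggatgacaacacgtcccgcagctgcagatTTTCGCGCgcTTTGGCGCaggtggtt

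In the DREAM and MuvB complexes, which join E2F4 and the pocket proteins to silence cell cycle genes and later switch with MYB and FOXM1 to activate them, 4 of 8 measured partners were at least 2-fold lower and none higher. MYBL2, or B-MYB, was 6.37-fold lower on RPKM + 1, at 12.8 and 1.17 RPKM. LIN9, a MuvB subunit, stood at 11.9 and 2.57 RPKM, FOXM1 at 10.4 and 3.16 RPKM, and LIN54, the subunit that reads the CHR element, at 17.1 and 7.16 RPKM. The other MuvB members did not move as far, with LIN52 at 16.9 and 16.6 RPKM and RBBP4, a histone-binding protein, at 154 and 98.2 RPKM. DYRK1A, the kinase that assembles DREAM, stood at 33.0 and 27.7 RPKM and MYBL1 at 13.1 and 15.5 RPKM. LIN37 was found only in a row joined with other symbols. The list had a median log2 ratio of -0.90.

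Cyclins and kinases that free E2F from the pocket proteins were all lower, 5 of 11 by at least 2-fold, with a median of -0.67. Among the 5, CDC25A, the phosphatase that activates CDK2, stood at 8.93 and 0.936 RPKM, CCNA2, a cyclin of S phase and G2, at 17.0 and 2.67, and CCNE2, an E cyclin, at 25.2 and 8.85 RPKM. CDK2 stood at 41.8 and 15.7 RPKM and CDK4 at 216 and 87.1 RPKM. The D cyclins, which start RB1 phosphorylation, lay within 2-fold: CCND1 at 86.9 and 66.8 RPKM and CCND3 at 19.2 and 14.9 RPKM, while CCND2 was under 1 RPKM in both. CCNE1, the other E cyclin, also lay within 2-fold at 11.3 and 6.70 RPKM. CDK6 stood at 2.23 and 1.68 RPKM, CDK7 at 71.9 and 45.1 and CCNH at 169 and 126 RPKM. MNAT1, of the same kinase complex as CDK7, was found only in a joined row.

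CDK inhibitors, which keep RB1 able to bind E2F, did not share a direction. CDKN2C, or p18, was at least 2-fold lower at 14.6 and 6.03 RPKM, and CDKN2B, or p15, at least 2-fold higher at 0.721 and 2.96 RPKM. CDKN2D, or p19, stood at 7.52 and 15.2 RPKM and CDKN1A, or p21, at 52.7 and 27.1 RPKM, both just within 2-fold on RPKM + 1. CDKN1B stood at 30.1 and 26.3 RPKM and CDKN2A at 6.52 and 4.82 RPKM, and CDKN1C was under 1 RPKM in both libraries. Of the 6 expressed inhibitors, 1 passed 2-fold downwards and 1 upwards, beside 9.57% and 7.75% of all expressed genes. The median over the 6 was -0.28.

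The partners of E2F6 in its Polycomb complex lay within 2-fold in all 14 cases, with a median of -0.37. RING1, a ubiquitin ligase of the complex, stood at 15.5 and 26.5 RPKM and WDR5 at 12.5 and 6.65 RPKM, the widest differences on the list. The RING1 value sums 6 rows of that symbol. HDAC2 and YAF2 stood at 109 and 69.0 and at 30.4 and 20.4 RPKM. Among genes for the turnover and co-regulation of E2F and DP proteins, 4 of 15 passed 2-fold downwards and 1 upwards. Of all expressed genes, 9.57% passed downwards and 7.75% upwards. The median over the 15 was -0.32. CDCA4, a cell cycle regulator, stood at 9.88 and 2.98 RPKM, USP37, a deubiquitinase, at 33.2 and 12.8, and CDC20, an activator of the anaphase-promoting complex, at 20.6 and 8.92 RPKM. NCOA6, a coactivator, was the higher one at 7.11 and 17.5 RPKM over 2 summed rows, and the fourth lower gene, chosen after its values were seen, was UHRF1, at 3.60 and 0.0978 RPKM.

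The G1/S targets of E2F were lower in all 38 cases measured in rows of their own, 32 of them by at least 2-fold, with a median of -1.90. These genes were listed as known targets with earlier results of these libraries in view, so their count is no independent support. RRM2, CDC6, CDC45 and MCM10, of nucleotide supply and origin firing, had the largest ratios, with log2 values of -4.50, -3.94, -3.65 and -3.25. That median was lower than the members' own median of -0.92. Another 5 of the listed G1/S targets were found only in rows joined with other symbols and were not counted. The joined rows of FEN1 and CHAF1B had log2 ratios of 0.81 and 0.03, and those of PRIM1, MIR17HG and DCK -0.23, -1.02 and -1.99. Of 18 G2/M genes that DREAM holds back, all were lower and 14 by at least 2-fold, with a median of -1.57. UBE2C, CDK1, BIRC5 and AURKB led them, at 5.46-fold, 4.80-fold, 4.21-fold and 4.07-fold lower on RPKM + 1. Housekeeping controls had a median of -0.11 over 18 genes, with 1 beyond 2-fold, which was higher.

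**Figure D4:**
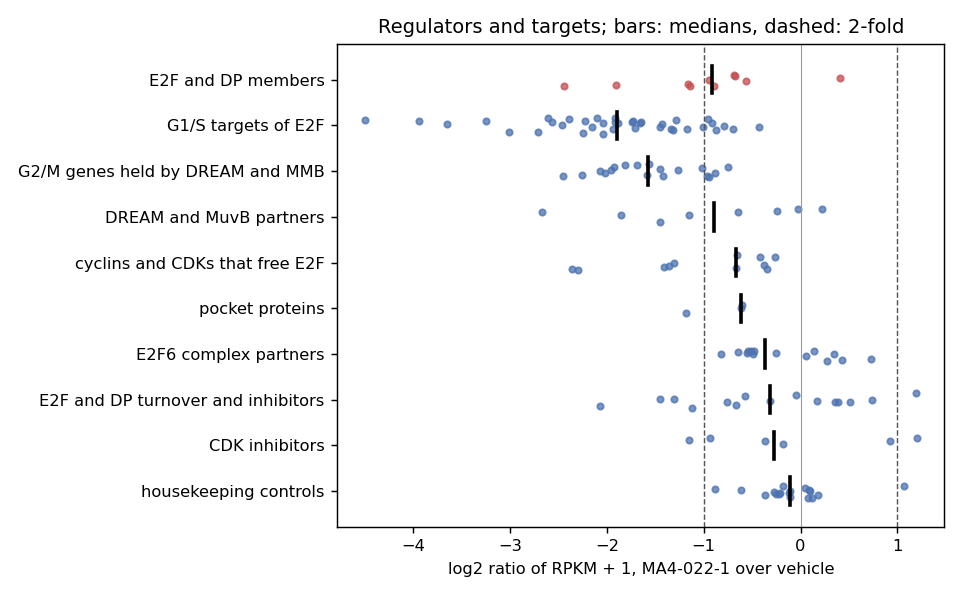
Log2 ratio of RPKM + 1, MA4-022-1 over vehicle, for the members and for 9 lists, 1 point per expressed gene, with a black bar at each median and dashed lines at 2-fold. The G1/S targets have the lowest median, -1.90, and the E2F6 partners all lie between the dashed lines.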

How the data were processed

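Total RNA, depleted of ribosomal RNA per the labels' protocols, was read as single 50 nt reads, with 1 library of DMSO-treated and 1 of MA4-022-1-treated C4-2B cells. TopHat2 2.0.13, Cufflinks 2.2.1 and hg19 are named per the submitters' processing notes. The authors deposited RPKM per row with a locus and a symbol, per the file headers, so no count model was used. Each table held 62271 rows, of which 2751 without a symbol were left out. Rows of one symbol were summed and short RNAs left out. Genes that reached 1 RPKM in either library counted as expressed, and were called at 2-fold on log2 of RPKM + 1. Locus starts were raised by 1 to count from 1.

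The members and gene lists were chosen with earlier results of these data known. Named genes were all members, all genes of the lists of pocket proteins, DREAM and MuvB partners, CDK inhibitors, and cyclins and CDKs, up to 4 of each other list with the largest ratios, and the 3 nearest genes to 2 members. Some genes of the lists are not reported here. Protein features foreseen in the design were not analysed here.

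Totals were fitted to values of up to 5 reads in processed pseudogenes of 600 to 6000 nt alone at their locus, with effective lengths shorter by 194 and 198 nt. Of 256 and 195 such values, 87.9% and 87.7% lay within 2% of a whole read. Reads of a member assume the median length of its coding transcripts in GENCODE release 29, used for lengths and gene types alone, and a longer transcript would mean more reads. Ratio intervals are exact binomial (Clopper-Pearson), level intervals exact Poisson. Both cover counting error only, as PCR copies are not marked. Python 3.11.15, numpy 2.4.6, pandas 2.3.3, scipy 1.17.1 and matplotlib 3.10.9 were used. The fit of the totals and the 2-fold call rule were tested on simulated data, and the intervals were not. Alternatives were other pseudocounts, filters, scalings, row rules and thresholds.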

Additional observations from a re-analysis of the deposited data

How the results depend on the processing

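No member changed direction under the 11 settings fixed at the start or the 2 added after seeing the data (protein-coding symbols only, no pseudocount). Only the 3 scalings could have changed a direction. A pseudocount keeps the sign of a ratio, and filters, row rules, thresholds and symbol types left the ratio of each member kept unchanged. Of 127 values of single members, 115 kept their side of the threshold, 5 lost it and 7 gained it. Those kept include settings that could change neither value nor threshold. E2F1 kept its call under every setting, with log2 ratios from -3.14 to -1.39. With a pseudocount of 5 RPKM the members at least 2-fold lower were 1 in place of 4, as E2F2, E2F5 and E2F8 then lay at -0.35, -0.85 and -0.86. All expressed genes called were then 661 lower (4.28%) and 442 higher (2.86%). With a pseudocount of 0.1, E2F7 passed at -1.58, beside 2058 genes lower (13.3%) and 1959 higher (12.7%). At 1.5-fold, 8 members were lower, beside 3190 expressed genes lower (20.7%) and 2910 higher (18.8%). At 3-fold, 2 members were lower, beside 513 genes lower (3.32%) and 378 higher (2.45%). Requiring 5 RPKM left 10578 genes, of which 1090 were lower (10.3%) and 746 higher (7.05%). E2F2, E2F3 and E2F7 then dropped out, and 3 members were lower. Protein-coding symbols alone tested fewer genes and gave 935 lower and 405 higher, with 30.2% of all calls higher in place of 44.7%. Equal sums moved the median of all genes by -0.10, with TFDP2 at -1.01, the list of DREAM and MuvB partners at a median of -1.01, and 36.3% of all calls higher. Setting the housekeeping controls to 0 moved it by 0.11, to 56.9% higher, and the members' median was then -0.80. No paired analysis was possible because each group held 1 library. At about 13 reads, the E2F2 level with MA4-022-1 is the least precise, with an interval of 0.0719 to 0.231 RPKM.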

Other observations

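Genes through which E2F1 is known to promote cell death moved in both directions. Of 10 expressed genes, 3 passed 2-fold downwards and 1 upwards, beside 9.57% and 7.75% of all expressed genes. The median log2 ratio over the 10 was -0.36, and the difference from the replication targets was not tested. CASP8, an initiator caspase, stood at 23.5 and 9.55 RPKM, vehicle first, and PMAIP1, or NOXA, at 8.01 and 3.42 RPKM. PPP1R13B, which steers p53 towards death genes, was the higher one, at 6.28 and 19.3 RPKM. TP73, the p53 relative that E2F1 induces, was under 1 RPKM in both libraries, at 0.417 and 0.0902 RPKM.

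Germline genes that E2F6 is known to silence were mostly near 0. Of 11 listed, 8 were under 1 RPKM in both libraries, DDX4 and SLC25A31 among them at a listed value of 0. STAG3, a cohesin subunit of meiosis, stood at 1.16 and 5.95 RPKM, 3.21-fold higher on RPKM + 1, while TUBA3D, a testis tubulin, stood at 3.14 and 0.493 RPKM. SYCE2, of the synaptonemal complex, lay within 2-fold at 4.24 and 5.53 RPKM.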
